A study of Homo sapiens with 12 samples.

Results

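IL33, 2 further ligands of the interleukin-1 family (IL1A and IL1B), 3 receptor genes of that family (IL1R1, IL1RL1 and IL1RAP), the cytokine IL6 and the prostaglandin synthase PTGS2 were followed through 12 libraries of human endothelial cells. These 8 genes were chosen by symbol, with earlier results of the same libraries known, out of 35587 symbols in the table. All 8 were found. Because their measured values had a part in the choice, their levels and differences are given below as a description, without p-values.

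Interleukin-1 family ligands are alarm cytokines that signal through paired receptor chains. IL1A and IL1B bind the receptor encoded by IL1R1, IL33 binds ST2, which is encoded by IL1RL1, and both receptors recruit the shared accessory chain encoded by IL1RAP. The bound complex signals through MyD88, IRAK kinases and TRAF6 to NF-kB, and IL6 and PTGS2 are classical target genes of this route in endothelium. IL33 is held in the nucleus of resting vascular endothelium, and its expression there has been tied to Notch signalling.

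The cells were TeloHAEC, a telomerase-immortalised line of human aortic endothelial cells. In the TKO line TSPAN14 had been targeted with Cas9, in the NKO line NOTCH1 had been targeted, and the NT line was the control. TSPAN14 encodes a tetraspanin partner of ADAM10, the protease that cleaves activated Notch receptors, and NOTCH1 encodes one of those receptors. Each line was kept for 24 hours on a coating made with DLL4, a Notch ligand, or with IgG, both at 2.5 mg/mL, and 140 ng of total RNA per library went into polyadenylated RNA sequencing. The 6 groups were TKO on DLL4, NKO on DLL4, NT on DLL4, TKO on IgG, NKO on IgG and NT on IgG, with 2 libraries each. Each targeted gene was represented by 1 line, so the target and any other difference between the lines cannot be told apart.

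Values are the authors' TPM, transcript levels corrected for transcript length and library total, and the number of reads behind them is unknown. Differences are given on the scale log2(TPM + 1) with the standard error of a limma fit over all 12 libraries, and a gene is said to pass the threshold when its limma p, adjusted over 13299 genes, is under 0.05. By the labels a group's 2 libraries are biological replicates, with no word on separate cultures, so the errors measure the spread between these libraries. On DLL4, TSPAN14 had 113 and 109 TPM in TKO cells, against 186 and 172 TPM in NT cells, and on IgG 127 and 148 TPM, against 189 and 218 TPM. NOTCH1 was at 16.5 and 19.5 TPM in NKO cells on DLL4, against 31.5 and 24.7 TPM in NT cells, and at 19.2 and 15.6 TPM in NKO cells on IgG, where the 17.8 and 19.6 TPM of NT cells overlapped. Libraries are numbered below as the column headers number them, 2 and 3 for TKO and NT cells and 1 and 2 for NKO cells.

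All 12 endothelial markers were tested, and their summed level was 2510.5 to 2973.5 TPM in the 12 libraries. Single markers did move: 3 rose (KDR, TEK and ERG) and 2 fell (CLDN5 and EGFL7) on DLL4 in NT cells, where 16.0% of all genes passed. CLDN5, a tight junction protein, fell on DLL4 in all 3 lines and ranged from 15.1 to 146 TPM. The TEK and ERG calls were lost without NT library IgG 2 or 3 or DLL4 2, and the NKO call of CLDN5 without any 1 of the 4 NKO libraries. On DLL4, 5 of the 12 passed in TKO against NT cells (26.6% of all genes) and 5 in NKO against NT cells (20.7%). Of 14 leukocyte markers 4 were tested. Their summed level was 58.1 to 69.4 TPM in the TKO libraries, 30.8 to 43.4 TPM in the NKO libraries and 46.2 to 57.5 TPM in the NT libraries. Most of it was CD68. CD14, a monocyte co-receptor, reached 6.08 and 9.65 TPM in the TKO libraries on DLL4 and 2.33 and 2.75 TPM in those on IgG. In NT cells it had at most 0.461 TPM. CD14 passed the threshold as higher in TKO than in NT cells on both coatings. Outside TKO cells only NKO library DLL4 2, at 1.54 TPM, reached 1 TPM of CD14. CD14 would not have passed the filter on low values without the TKO libraries. It also passed as higher on DLL4 in TKO cells (1.30 ± 0.30, limma adjusted p = 0.029), a call lost in 6 of 17 alternatives (adjusted p 0.012 to 0.24). TYROBP was listed at 0 in all 12 libraries, and the highest level of PTPRC was 0.744 TPM. Of the 5 epithelial markers, KRT5 and KRT14 were listed at 0 in all 12 libraries, and the summed level of the 5 was almost all KRT19. That level was 298 to 375 TPM in TKO, 74.4 to 151 TPM in NKO and 64.3 to 66.0 TPM in NT cells on DLL4, and 584 to 753 TPM in TKO, 138 to 299 TPM in NKO and 182 to 223 TPM in NT cells on IgG. Of 8 fibroblast and mural markers 3 were tested, and most of their sum was ACTA2. The sum was 27.8 to 35.0 TPM in TKO, 14.6 to 16.3 TPM in NKO and 24.4 to 26.0 TPM in NT cells on DLL4, and 24.8 to 26.4 TPM in TKO, 12.1 to 14.3 TPM in NKO and 17.0 to 17.2 TPM in NT cells on IgG. ACTA2, smooth muscle actin, passed as higher on DLL4 in NT cells (0.62 ± 0.14) and as lower in NKO than in NT cells on DLL4 (-0.69 ± 0.14), with limma adjusted p = 0.012 and 0.0054. The first of these calls was lost without NT library IgG 2 (0.54) or DLL4 2 (0.58) or 3 (0.65). ACTA2 also passed as higher in TKO than in NT cells on IgG (0.53 ± 0.14, limma adjusted p = 0.015). That call was lost without NT library IgG 2 (0.45) or TKO library IgG 2 (0.50). COL1A2, a collagen chain, measured 2.18 and 2.50 TPM in TKO cells on DLL4 and 2.74 and 2.88 TPM on IgG. In NT cells it reached at most 0.225 TPM. COL1A2 passed as higher in TKO than in NT cells on DLL4 (1.52 ± 0.19) and on IgG (1.81 ± 0.19). It had passed the filter on low values through the TKO libraries alone. The part of these markers in the results below was not tested.

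The sequences before the transcription starts of 5 genes are shown because the differences between coatings (IL33, IL1B, IL6 and PTGS2) and between lines (IL1RL1) described at most length fall on them. They are RefSeq's (GRCh38.p14), read 5′ to 3′ on the strand of the gene, and stop before the first GENCODE 29 exon met in that direction. The IL6 stretch lies inside the gene as GENCODE annotates it, which begins at chr7:22725884, and not upstream of it. Lower case is unmatched sequence and capitals mark motif matches. IL33 has 2 annotated starts, with sequence at chr9:6214899-6215148 and chr9:6215557-6215785 on the plus strand. IL1B is at chr2:112836904-112837029 (minus strand), IL1RL1 at chr2:102311313-102311501 (plus strand), IL6 at chr7:22726950-22727146 (plus strand) and PTGS2 at chr1:186680428-186680673 (minus strand).
IL33, distal start: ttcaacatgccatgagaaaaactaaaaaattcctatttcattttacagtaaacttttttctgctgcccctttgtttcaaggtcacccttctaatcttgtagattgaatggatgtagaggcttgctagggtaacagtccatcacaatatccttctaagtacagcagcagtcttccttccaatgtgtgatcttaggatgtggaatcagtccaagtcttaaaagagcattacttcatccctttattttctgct
IL33, proximal start: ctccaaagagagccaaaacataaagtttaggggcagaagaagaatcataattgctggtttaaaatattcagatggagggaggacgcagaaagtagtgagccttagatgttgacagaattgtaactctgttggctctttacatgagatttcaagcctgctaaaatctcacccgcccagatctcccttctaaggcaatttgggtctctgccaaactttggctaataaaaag
IL1B: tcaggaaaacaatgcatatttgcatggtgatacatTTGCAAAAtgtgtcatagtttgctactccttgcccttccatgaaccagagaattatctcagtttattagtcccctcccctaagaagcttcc
IL1RL1, distal start: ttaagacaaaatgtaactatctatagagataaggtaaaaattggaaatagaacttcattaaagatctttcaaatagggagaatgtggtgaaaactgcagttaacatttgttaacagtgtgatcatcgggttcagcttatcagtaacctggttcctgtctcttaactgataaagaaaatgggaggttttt
IL6: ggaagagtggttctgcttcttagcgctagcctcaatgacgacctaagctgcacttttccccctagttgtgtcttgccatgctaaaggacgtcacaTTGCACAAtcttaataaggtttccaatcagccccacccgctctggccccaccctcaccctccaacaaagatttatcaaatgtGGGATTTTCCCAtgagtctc
PTGS2: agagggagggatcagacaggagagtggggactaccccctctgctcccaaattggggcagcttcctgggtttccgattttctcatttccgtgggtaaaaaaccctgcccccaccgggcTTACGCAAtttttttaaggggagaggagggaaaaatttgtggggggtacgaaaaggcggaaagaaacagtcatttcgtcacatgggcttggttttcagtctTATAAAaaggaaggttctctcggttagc

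All 8 genes matched RefSeq's table, with 14 annotated starts. For each, the 250 bases before the start were searched on both strands. The core site of the Notch effector RBPJ was taken as TGGGAA. The motif of AP-1, the Fos and Jun dimer, was taken as TGANTCA. That of C/EBP, a family of activators of cytokine genes, was taken as TTNNGCAA. The NF-kB site was searched as well, and the TATA box was taken as TATAAA on the strand of the gene only. Of 35116 windows of that length in the table, 20.8% held the RBPJ core, 6.57% the AP-1 motif, 9.05% the C/EBP motif, 9.96% the NF-kB site and 6.80% the TATA box. Neither IL33 window held a match. The IL6 window held a C/EBP match 155 to 148 bases before the start, an NF-kB match 73 to 64 bases before it, and an RBPJ core on the opposite strand at 67 to 62 bases, which overlaps the NF-kB match. PTGS2 had a C/EBP match at 133 to 126 bases and a TATA box at 32 to 27 bases, and IL1B a C/EBP match at 215 to 208 bases. A TATA box 29 to 24 bases before the distal start of IL1RL1 lies beyond the stretch shown. Of the windows not shown, both of IL1A held AP-1 matches and 1 of them a TATA box 239 to 234 bases before its start. The window of the other IL1RL1 start held an AP-1 match, an RBPJ core lay in 1 of the 4 IL1R1 windows, and IL1RAP had no match. A match describes letters only, and windows without one say nothing of binding elsewhere.

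IL33 (chr9:6215786-6257983, plus strand, GRCh38) was highest in NT cells on DLL4. TKO cells had 2.58 and 2.24 TPM on DLL4, against 1.25 and 0.543 TPM on IgG. NKO cells had 1.77 and 1.73 TPM on DLL4, against 0.657 and 0.288 TPM on IgG. NT cells had 14.5 and 14.1 TPM on DLL4, against 0.304 and 0.333 TPM on IgG, a 44.9-fold ratio of means. The coatings did not overlap in any of the 3 lines, but the difference was 0.87 ± 0.21 in TKO cells and 0.91 ± 0.21 in NKO cells, against 3.54 ± 0.21 (SE) in NT cells. Ranked by the size of the DLL4 difference in NT cells, IL33 was 6 of 13299 tested genes. Bulk RNA cannot tell fewer cells that make a transcript from less of it per cell, which holds for every difference given here.

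The order of the IL33 means on DLL4 was NT, TKO, NKO, with no overlap between neighbours, and on IgG TKO, NKO, NT, where neighbours overlapped. TKO cells were thus 2.17 ± 0.21 below NT cells on DLL4 and 0.50 ± 0.21 above them on IgG, where TKO library 2, at 1.25 TPM, was the highest. The IgG value missed the threshold, and passed it without TKO library IgG 3 (0.77). NKO cells differed from NT cells by -2.48 ± 0.21 on DLL4 and 0.15 ± 0.21 on IgG. The DLL4 response, the difference between coatings within a line, differed from that of NT cells by -2.67 ± 0.29 in TKO cells and by -2.63 ± 0.29 in NKO cells. The IL33 difference between coatings in TKO cells missed the threshold in 7 of 17 alternatives, those without TKO library IgG 3 (0.60), TKO library DLL4 2 (0.80) or 3 (0.94) or NT library DLL4 2 or 3 (0.87 in both), that without a filter (0.87), and that with a pseudocount of 0.1, where the difference was larger (1.43). In NKO cells it missed the threshold in the full fit and passed it without TKO library IgG 3 (0.91). IL33 passed the filter on low values through 7 of the 12 libraries, the 6 on DLL4 and 1 on IgG.

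**Figure D1:**
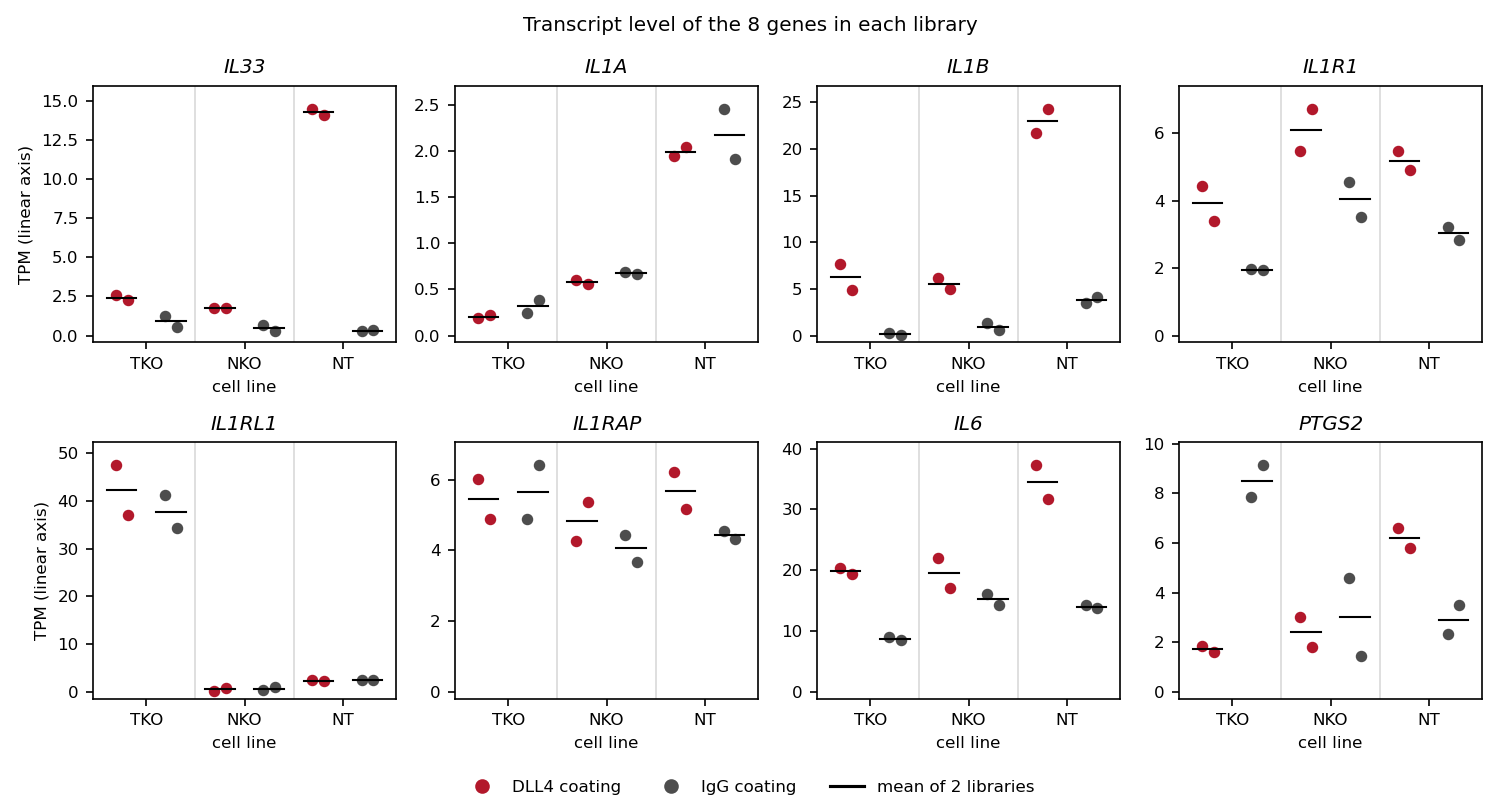
TPM of the 8 genes on linear axes, 1 point per library, grouped by line (TKO, NKO, NT) with DLL4 left of IgG in each and a bar at the mean of 2 libraries. IL33 stands at 14.5 and 14.1 TPM in NT cells on DLL4 and at 2.58 TPM or less elsewhere, IL1RL1 at 34.2 TPM or more in TKO cells alone, and PTGS2 is high in NT cells on DLL4 and in TKO cells on IgG.

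IL1B (chr2:112829751-112836903, minus strand), the secreted ligand that needs cleavage by caspase-1, was higher on DLL4 in every line. TKO cells had 7.61 and 4.90 TPM on DLL4, against 0.287 and 0.0801 TPM on IgG. NKO cells had 6.16 and 4.97 TPM on DLL4, against 1.29 and 0.604 TPM on IgG. NT cells had 21.7 and 24.3 TPM on DLL4, against 3.49 and 4.11 TPM on IgG. The coatings were apart in all 3 lines, by 2.60 ± 0.23 in TKO cells, 1.77 ± 0.23 in NKO cells and 2.32 ± 0.23 in NT cells.

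IL1B was lower in both targeted lines than in NT cells on either coating, with no overlap. TKO cells differed from NT cells by -1.75 ± 0.23 on DLL4 and -2.02 ± 0.23 on IgG, and NKO cells by -1.87 ± 0.23 and -1.32 ± 0.23. The responses differed by 0.27 ± 0.32 between TKO and NT cells and by -0.55 ± 0.32 between NKO and NT cells, and neither value passed the threshold, which does not show that they were equal. The ratio of mean TPM between coatings was 34.1 in TKO cells, 5.87 in NKO cells and 6.06 in NT cells. The TKO ratio rests on IgG levels near 0, and with a pseudocount of 0.1 the IL1B difference between coatings was 4.56 in TKO, 2.51 in NKO and 2.57 in NT cells. On that scale the IL1B responses differed by 1.99 between TKO and NT cells and by -0.06 between NKO and NT cells, again without passing the threshold, so the size of both values depends on the pseudocount.

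IL1A (chr2:112773915-112784590, minus strand), which encodes the ligand that is active without cleavage, differed between lines and little between coatings. TKO cells had 0.193 and 0.218 TPM on DLL4 and 0.246 and 0.390 TPM on IgG. NKO cells had 0.597 and 0.557 TPM on DLL4 and 0.688 and 0.672 TPM on IgG. NT cells had 1.95 and 2.04 TPM on DLL4 and 2.46 and 1.91 TPM on IgG. IL1A thus sorted by line with no overlap, NT above NKO above TKO, while its differences between coatings were -0.13 ± 0.18, -0.09 ± 0.18 and -0.08 ± 0.18 in TKO, NKO and NT cells. The coatings overlapped in NT cells, and the DLL4 libraries were the lower ones in TKO and NKO cells.

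IL1A passed the filter on low values through the 4 NT libraries alone. TKO cells differed from NT cells in IL1A by -1.31 ± 0.18 on DLL4 and -1.27 ± 0.18 on IgG, and NKO cells by -0.92 ± 0.18 on both coatings. The NKO value on IgG missed the threshold without NT library IgG 2 (-0.79).

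The ratio of IL1B to IL1A was higher on DLL4. On DLL4 it was 39.4 and 22.5 in TKO cells, 10.3 and 8.93 in NKO cells and 11.2 and 11.9 in NT cells. On IgG it was 1.17 and 0.205 in TKO cells, 1.88 and 0.898 in NKO cells and 1.42 and 2.16 in NT cells. Every DLL4 library lay above every IgG library.

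IL1RL1 (chr2:102311502-102352037, plus strand), the IL33 receptor gene, was high in TKO cells on either coating. TKO cells had 47.5 and 37.0 TPM on DLL4, against 2.48 and 2.17 TPM in NT cells. On IgG TKO cells had 41.2 and 34.2 TPM, against 2.46 and 2.51 TPM in NT cells. NKO cells had 0.231 and 0.808 TPM on DLL4 and 0.268 and 0.901 TPM on IgG. The lines did not overlap, with TKO above NT by 3.69 ± 0.23 on DLL4 and 3.47 ± 0.23 on IgG (18.2 and 15.2 times the NT mean), and NKO below NT by -1.15 ± 0.23 and -1.17 ± 0.23. The NKO value on DLL4 missed the threshold without NKO library DLL4 1 (-0.88), and that on IgG without NKO library IgG 1 (-0.87) or NT library IgG 2 (-1.18) or 3 (-1.16).

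The coatings overlapped for IL1RL1 in all 3 lines, at 0.16 ± 0.23 in TKO cells, -0.06 ± 0.23 in NKO cells and -0.07 ± 0.23 in NT cells. The cells with the highest IL33 and those with the highest IL1RL1 were therefore different groups, NT on DLL4 and TKO on either coating.

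IL1RL1 lies in a cluster of receptor genes of the same family on chromosome 2, between IL1RL2 and IL18R1. IL18R1, a chain of the interleukin-18 receptor, overlaps IL1RL1 on the same strand, so reads may be shared between them. IL18R1 measured 1.83 and 1.45 TPM in TKO cells on DLL4 and 1.99 and 1.92 TPM on IgG, and at most 0.612 TPM in the other 8 libraries. IL1R2, which encodes a decoy receptor, reached 0.788 TPM at most, and IL1RL2 and IL18RAP were lower still. The median difference between TKO and NT cells over the 612 protein-coding genes of chromosome 2 with a mean of at least 5 TPM was 0.00 on both coatings.

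**Figure D2:**
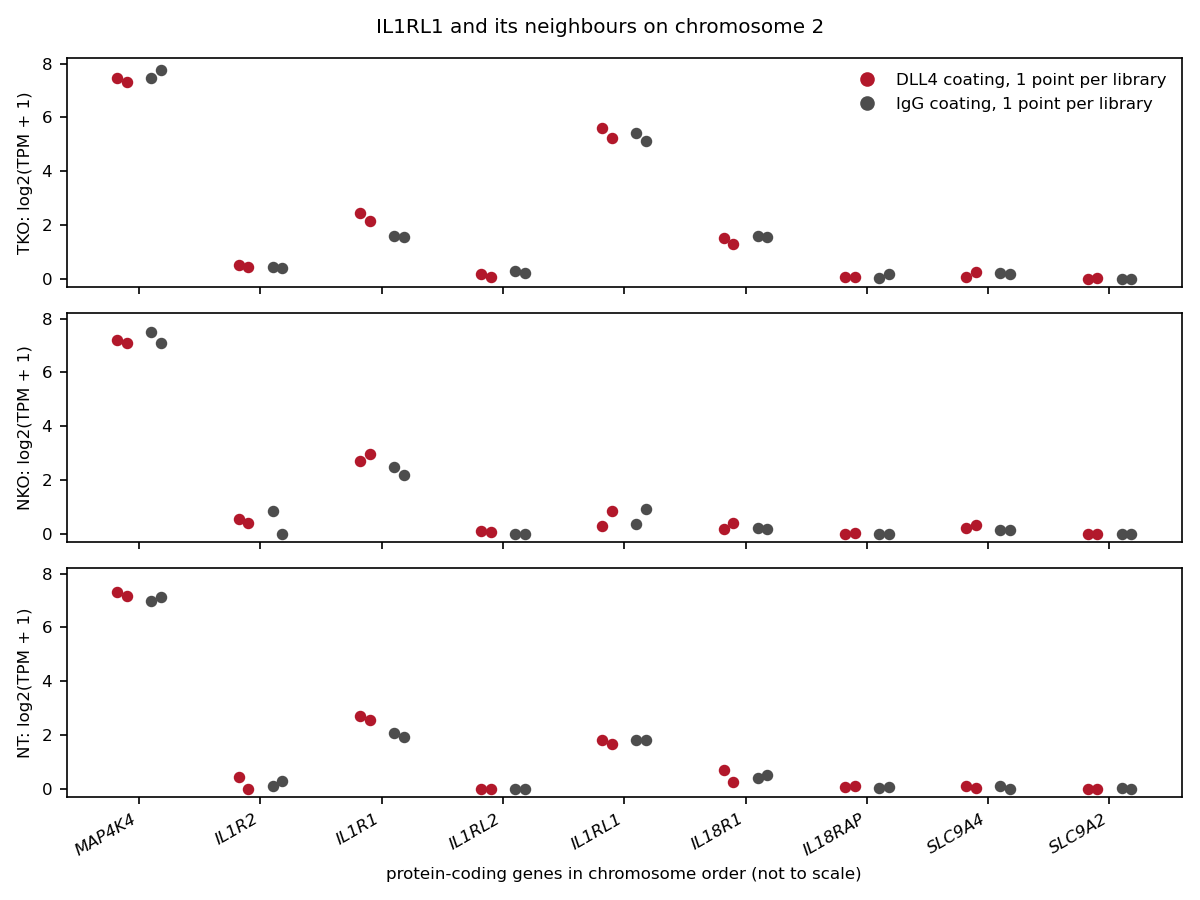
log2(TPM + 1) of IL1RL1 and the protein-coding genes on either side, in chromosome order, with a panel for each line and 1 point per library. In TKO cells IL1RL1 and, at a lower level, IL18R1 stand above their NT values, while IL1R2, IL1RL2 and IL18RAP lie under 1 TPM in all lines.

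IL1R1 (chr2:102064544-102179874, plus strand), the signalling receptor for IL1A and IL1B, was higher on DLL4 in every line. TKO cells had 4.44 and 3.40 TPM on DLL4, against 1.97 and 1.93 TPM on IgG. NKO cells had 5.46 and 6.73 TPM on DLL4, against 4.55 and 3.52 TPM on IgG. NT cells had 5.46 and 4.92 TPM on DLL4, against 3.22 and 2.83 TPM on IgG. The coatings did not overlap, and differed by 0.73 ± 0.17 in TKO, 0.50 ± 0.17 in NKO and 0.62 ± 0.17 in NT cells. TKO cells differed from NT cells by -0.34 ± 0.17 on DLL4 and -0.45 ± 0.17 on IgG, and NKO cells by 0.19 ± 0.17 and 0.32 ± 0.17. The coating differences of TKO and NT cells passed the threshold but missed it without a filter. The NT value also missed it without NT library IgG 2 (0.69) or 3 (0.55) or DLL4 2 (0.56) or 3 (0.68), and the TKO value without TKO library IgG 2 (0.74) or 3 (0.72) or DLL4 2 (0.58) or 3 (0.88). An antisense gene, IL1R1-AS1, overlaps IL1R1, and the labels do not say whether strand was used in counting.

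The ratio of IL1RL1 to IL1R1 was 10.7 and 10.9 in TKO cells on DLL4 and 21.0 and 17.7 on IgG. It was at most 0.256 in NKO cells and at most 0.886 in NT cells. TKO cells were thus the one line with more TPM of the IL33 receptor than of the IL1 receptor.

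IL1RAP (chr3:190514051-190659750, plus strand), the accessory chain both receptors share, was the least variable of the 8 genes, at 3.68 to 6.42 TPM in the 12 libraries. Every neighbour in the order of its group means overlapped, but not every comparison did. In NT cells DLL4, at 6.23 and 5.16 TPM, lay above IgG, at 4.56 and 4.33 TPM. On IgG TKO cells, at 4.89 and 6.42 TPM, lay above NT cells. Between coatings IL1RAP differed by -0.04 ± 0.18 in TKO, 0.20 ± 0.18 in NKO and 0.29 ± 0.18 in NT cells. Between TKO and NT cells it differed by -0.05 ± 0.18 on DLL4 and 0.28 ± 0.18 on IgG, and between NKO and NT cells by -0.20 ± 0.18 and -0.11 ± 0.18. None of its 9 comparisons passed the threshold.

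IL6 (chr7:22725884-22732002, plus strand) had the highest level of the 8 genes outside IL1RL1 in TKO cells, and was higher on DLL4. TKO cells had 20.3 and 19.3 TPM on DLL4, against 9.03 and 8.50 TPM on IgG. NKO cells had 22.0 and 17.0 TPM on DLL4, against 16.1 and 14.3 TPM on IgG. NT cells had 37.3 and 31.7 TPM on DLL4, against 14.3 and 13.7 TPM on IgG. The coatings did not overlap in any line, at 1.09 ± 0.13 in TKO, 0.33 ± 0.13 in NKO and 1.24 ± 0.13 in NT cells.

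TKO cells stood below NT cells in IL6 on both coatings, by -0.77 ± 0.13 on DLL4 and -0.62 ± 0.13 on IgG. NKO cells stood below NT cells on DLL4 (-0.80 ± 0.13), while on IgG the libraries overlapped (0.11 ± 0.13). The response differed from that of NT cells by -0.15 ± 0.19 in TKO cells and -0.90 ± 0.19 in NKO cells. The NKO value missed the threshold in the full fit and passed it when genes under a mean of 5 TPM were dropped (-0.90), with median-of-ratios rescaling (-0.93) and with the abundant pseudogene entry KPNA2P2 left out (-0.93). STEAP1B, which overlaps IL6 on the other strand, was at 46.8 to 62.3 TPM in all 12 libraries, with overlapping coatings in every line.

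PTGS2 (chr1:186671791-186680427, minus strand), which encodes the inducible cyclooxygenase COX-2, was higher on DLL4 in NT cells and lower on DLL4 in TKO cells. TKO cells had 1.86 and 1.62 TPM on DLL4, against 7.85 and 9.14 TPM on IgG. NKO cells had 3.01 and 1.81 TPM on DLL4, against 4.57 and 1.46 TPM on IgG. NT cells had 6.59 and 5.80 TPM on DLL4, against 2.31 and 3.51 TPM on IgG. The coatings were apart in opposite directions in TKO (-1.79 ± 0.33) and NT cells (0.90 ± 0.33) and overlapped in NKO cells (-0.14 ± 0.33). Its sister gene PTGS1, the constitutive cyclooxygenase, stayed between 19.2 and 29.1 TPM in all 12 libraries.

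TKO cells were thus below NT cells in PTGS2 on DLL4 (-1.39 ± 0.33) and above them on IgG (1.30 ± 0.33). NKO cells were below NT cells on DLL4 (-1.1 ± 0.33) and overlapped them on IgG (-0.06 ± 0.33). The response of TKO cells differed from that of NT cells by -2.69 ± 0.46 and that of NKO cells by -1.04 ± 0.46. PTGS2 had the widest error of the 8 genes, and the TKO response value, past the threshold in the full fit, missed it without filter (-2.69), with a pseudocount of 0.1 (-3.32) and without any of the 8 TKO and NT libraries (-2.91 to -2.46), always with the same sign. The TKO difference between coatings missed the threshold without TKO library IgG 3 (-1.69) or DLL4 3 (-1.73), and without a filter. The difference of TKO from NT on DLL4 missed it without NT library DLL4 2 (-1.31) or TKO library DLL4 3 (-1.33), and that on IgG without NT library IgG 2 (1.07) or TKO library IgG 3 (1.20) and without a filter. The NKO difference on DLL4 missed it without any 1 of the DLL4 libraries (-1.35 to -0.84) and without a filter. In NT cells the PTGS2 difference of 0.90 missed the threshold in the full fit and passed it without NKO library IgG 1 or 2 (0.90 in both).

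**Figure D3:**
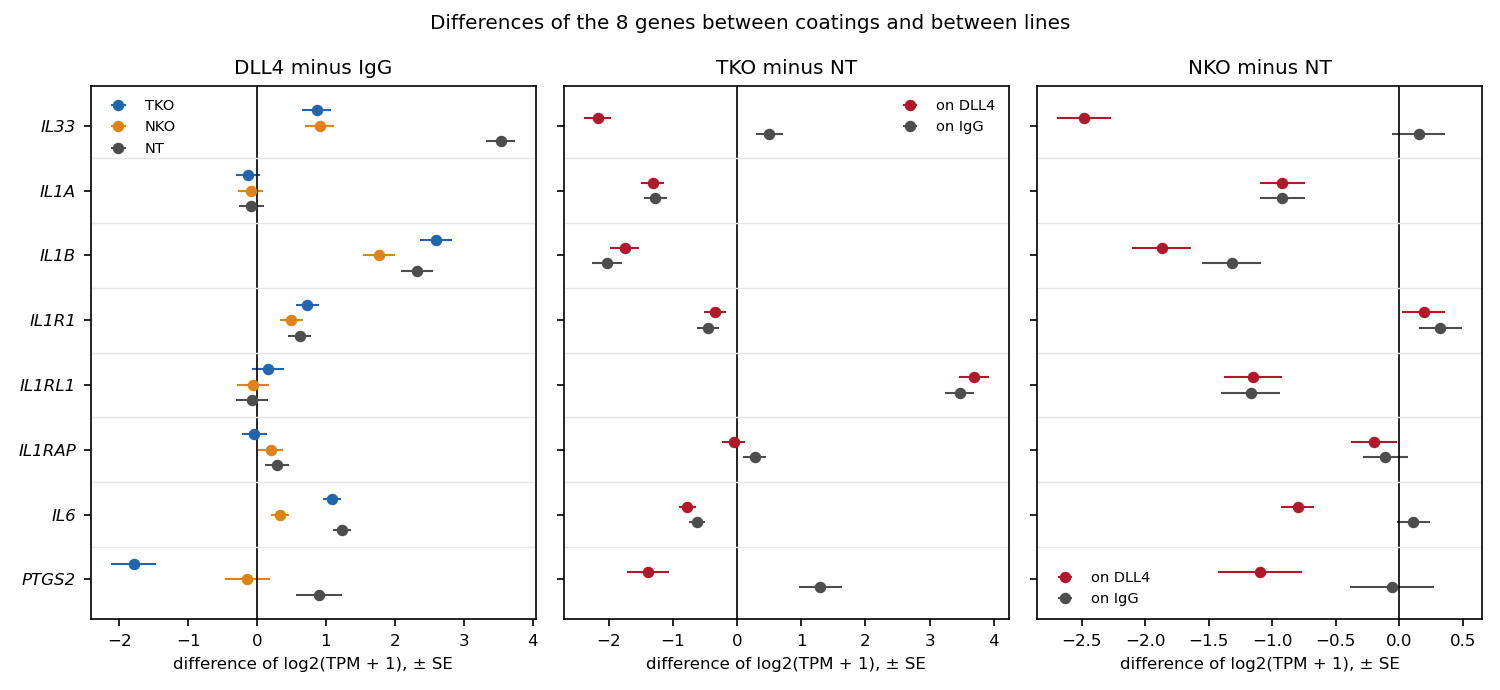
Differences of log2(TPM + 1) with standard errors for the 8 genes, between coatings in each line (left), between TKO and NT cells (middle) and between NKO and NT cells (right). IL33, at 3.54, leads in NT cells, IL1B lies between 1.77 and 2.60 in all 3 lines, IL1RL1 differs between lines, and PTGS2 has opposite signs in TKO and NT cells.

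Counted together, and beside the share of all tested genes with the same call, 4 of the 8 genes passed the threshold as higher on DLL4 in NT cells (7.68% of all genes) and 0 as lower (8.34%), where 16.0% passed in either direction. Without overlap of libraries, 6 were higher there (30.7%) and 0 lower (27.9%).

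In TKO cells 4 passed as higher (4.11%) and 1 as lower (2.41%) on DLL4, where 6.51% of all genes passed in either direction, and 4 were higher (28.5%) and 2 lower (21.8%) without overlap. In NKO cells 1 passed as higher (0.511%) and 0 as lower (0.271%), where 0.782% of all genes passed in either direction, and 4 were higher (18.9%) and 1 lower (15.1%) without overlap.

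In TKO against NT cells on DLL4, 1 of the 8 passed as higher (16.1%) and 5 as lower (10.5%), with 26.6% in either direction over all genes, and 1 was higher (37.1%) and 6 were lower (28.2%) without overlap. In TKO against NT cells on IgG, 2 passed as higher (15.2%) and 3 as lower (12.4%), with 27.6% in either direction, and 4 were higher (34.0%) and 4 lower (28.0%) without overlap. On both coatings the lower genes include IL1A, which had passed the filter on low values through the NT libraries alone.

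In NKO against NT cells on DLL4, 0 of the 8 passed as higher (11.4%) and 6 as lower (9.31%), with 20.7% in either direction, and 0 were higher (37.1%) and 6 lower (25.0%) without overlap. In NKO against NT cells on IgG, 0 passed as higher (4.92%) and 3 as lower (5.74%), with 10.7% in either direction, and 1 was higher (30.9%) and 3 were lower (21.2%) without overlap. For the DLL4 response, 2 of the 8 were lower in TKO than in NT cells (0.331%) and 0 higher (0.196%), with 0.526% in either direction, and 1 was lower in NKO than in NT cells (0.571%) and 0 were higher (0.316%), with 0.887% in either direction. These shares are given for scale only, since the genes were picked with such values known, and several comparisons share the same NT libraries. IL1A, counted as lower in both targeted lines, had passed the filter through the NT libraries alone, and IL33, counted as higher on DLL4, through the 6 DLL4 libraries and 1 other, so their counts in those directions follow in part from the filter. The median difference of the 8 genes between coatings was 0.44 in TKO, 0.26 in NKO and 0.76 in NT cells, beside 0.01 over all tested genes in each.

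Across the 12 libraries IL1B and IL6 had a Pearson r of 0.93 on the log2 scale, IL33 and IL6 0.84 and IL33 and IL1B 0.83, while IL1R1 and IL1RL1 had -0.61. The 12 points share 3 lines and 2 coatings, so these values describe the groups. Among the genes with the pattern most like that of IL33 were CDKN2B, a cell cycle inhibitor (r = 0.979 over 12 libraries), and COL18A1, a basement membrane collagen (0.968). CDKN2B was at 17.1 and 15.3 TPM in TKO, 13.5 and 15.8 TPM in NKO and 45.4 and 42.7 TPM in NT cells on DLL4, and at 9.79 to 12.7 TPM on IgG. Nearest to IL1B were GPC1, a heparan sulfate proteoglycan (0.972), PLIN2, a lipid droplet coat protein (0.958), and LAMA4, a laminin chain (0.956). Nearest to IL6 were NQO2 (0.982), CHSY1 (0.969) and CASC10 (0.964).

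The 3 genes most like IL1RL1 were AAMDC (r = 0.995), APBB1 (0.995) and EHBP1L1 (0.992), all on chromosome 11. EHBP1L1 measured 77.4 and 65.5 TPM in TKO cells on DLL4, against 37.2 and 33.7 TPM in NT cells. Over the 586 protein-coding genes of chromosome 11 with a mean of at least 5 TPM, the median difference between TKO and NT cells was 0.59 on DLL4 and 0.53 on IgG, beside 0.04 and 0.02 over all chromosomes. PTGS2 was most like TFE3 (0.941), STK39 (0.919) and RNF149 (0.917), and IL1R1 most like ARHGAP26 (0.958), HADHB (0.95) and BTD (0.926). IL1RAP, the least variable of the 8, was most like ARL6IP1 and PPM1B (0.924 each) and YTHDF3 (0.902).

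The wider pathway was read from 8 lists of textbook genes outside the 8 described above, with 159 genes, 158 of them in the table and 119 tested. These lists and the marker lists were chosen with earlier results of these data known. Shares and adjusted p-values of their genes, here and below, are therefore no independent evidence. In NT cells 11 of the 119 rose and 10 fell on DLL4 (17.6%, beside 16.0% of all genes), with a median of 0.03. There were 13 genes in all without NT library IgG 2 or DLL4 3. In TKO cells 9 rose and 7 fell on DLL4 (13.4%, beside 6.51% of all genes), with 9 genes in all without TKO library IgG 3, 8 without DLL4 2 or 3, and 10 without a filter. In NKO cells CCL2 rose and none fell (0.84%, beside 0.782% of all genes), with 2 genes called without NT library IgG 2 or 3 and 3 without NKO library IgG 2.

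Of 15 tested targets that interleukin-1 is known to induce in endothelium, 4 rose and CSF3 alone fell on DLL4 in TKO cells (33.3%, beside 6.51% of all genes), and likewise 4 rose and CSF3 alone fell in NT cells (33.3%, beside 16.0%). In NKO cells CCL2 alone passed. CCL2, a chemokine for monocytes, rose on DLL4 in all 3 lines by 1.27 ± 0.11 in TKO, 1.05 ± 0.11 in NKO and 1.5 ± 0.11 in NT cells (limma adjusted p = 7.1e-05, 0.0014 and 1.1e-05). TKO cells had 181 and 185 TPM of CCL2 on DLL4, against 84.0 and 67.3 TPM on IgG, and NT cells had 113 and 133 TPM on DLL4, against 43.9 and 41.5 TPM on IgG. CSF3, which encodes the granulocyte growth factor G-CSF, fell on DLL4 by 1.62 ± 0.15 in TKO cells and 1.59 ± 0.15 in NT cells (limma adjusted p = 0.00013 and 7.9e-05). IRF1, an interferon regulatory factor, rose by 1.1 ± 0.12 in TKO and 1.08 ± 0.12 in NT cells (limma adjusted p = 0.00047 and 0.00027). Of the 3 adhesion molecules of this list, all strongly induced by interleukin-1 in other endothelial cells, ICAM1 was expressed, while SELE and VCAM1 reached 0.374 and 0.0408 TPM. ICAM1 had 11.8 and 10.8 TPM in TKO cells on DLL4, against 9.53 and 8.10 TPM on IgG. NKO cells had 15.8 and 34.6 TPM of ICAM1 on DLL4, against 13.6 and 24.0 TPM on IgG. NT cells had 17.8 and 18.9 TPM on DLL4, against 7.98 and 6.31 TPM on IgG. ICAM1 rose on DLL4 in NT cells (1.26 ± 0.31, limma adjusted p = 0.021), a call lost without any 1 of the 4 NT libraries (1.11 to 1.41) and without a filter (adjusted p 0.0005 to 0.14 over 18 alternatives). Its difference between coatings was 0.33 ± 0.31 in TKO and 0.36 ± 0.31 in NKO cells. ICAM1 passed as higher in NKO than in NT cells on IgG (1.24 ± 0.31, limma adjusted p = 0.029). That call was lost without NT library IgG 2 (1.39) or 3 (1.09) or NKO library IgG 2 (0.85), and without a filter.

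Of 17 tested genes of the interleukin-6 family and its signalling, 0 rose and 2 fell on DLL4 in TKO cells (11.8%, beside 6.51% of all genes), and 1 rose and 3 fell in NT cells (23.5%, beside 16.0%). IL6R, the ligand-binding receptor chain, fell on DLL4 in TKO (-0.78 ± 0.16, limma adjusted p = 0.013) and NT cells (-0.97 ± 0.16, adjusted p = 0.0022). The TKO call for IL6R was lost without TKO library IgG 3 (-0.62) or DLL4 2 (-0.82) or 3 (-0.74), with adjusted p of 0.0053 to 0.11 over the alternatives. SOCS3, an inhibitor of the receptor's JAK-STAT signal, fell in NT cells (-0.84 ± 0.11, limma adjusted p = 0.0005), and its difference was -0.13 ± 0.11 in TKO cells. OSMR, the oncostatin M receptor chain, rose in NT cells (0.99 ± 0.17, limma adjusted p = 0.0031), and its difference was 0.48 ± 0.17 in TKO cells. IL18BP, a secreted inhibitor of interleukin-18, rose on DLL4 in TKO (1.14 ± 0.13, limma adjusted p = 0.00047) and NT cells (1.06 ± 0.13, adjusted p = 0.00038). ZFP36L1, which binds AU-rich elements and promotes decay of cytokine mRNA, fell in TKO (-0.66 ± 0.10, limma adjusted p = 0.0024) and NT cells (-0.61 ± 0.10, adjusted p = 0.002). PTGER4, a receptor of prostaglandin E2, fell in TKO (-0.73 ± 0.15, limma adjusted p = 0.015) and NT cells (-1.25 ± 0.15, adjusted p = 0.00035). The TKO call for PTGER4 was lost without TKO library IgG 3 (-0.55) or DLL4 2 (-0.79) or 3 (-0.67) and without a filter, with adjusted p of 0.0062 to 0.13 over the alternatives. IL1RN, the natural antagonist of the IL1 receptor, reached only 0.175 TPM in any library.

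In TKO against NT cells 31 of the 119 rose and 22 fell on DLL4, and 32 rose and 22 fell on IgG, or 44.5% and 45.4% of the genes, beside 26.6% and 27.6% of all tested genes. The higher genes on both coatings include NLRP3, HPGD, IL18R1, MAP3K8 and CXCL6, which had passed the filter on low values through TKO libraries alone. Their calls follow in part from the filter. Of the 13 list genes on chromosome 11, where the median was raised, 10 rose on DLL4 and 11 on IgG and none fell. Chromosomes 18 and 21 also had raised medians, at 0.48 and 0.49 on DLL4 and 0.52 and 0.48 on IgG. On the chromosomes other than 11, with 18 and 21 among them, 21 of 106 rose and 22 fell on each coating. The part of these chromosome differences in the counts was not tested.

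The inflammasome activates IL1B. Of 13 tested genes of cytokine processing and the inflammasome, 9 rose and 1 fell in TKO against NT cells on DLL4 (76.9%, beside 26.6% of all genes). On IgG 9 rose and 2 fell (84.6%, beside 27.6%). NLRP3, among the higher genes on both coatings, had passed the filter on low values through the TKO libraries alone. Its calls follow in part from the filter. CASP1, the caspase that cleaves IL1B, measured 9.18 and 7.24 TPM in TKO cells on DLL4, against 0.674 and 1.58 TPM in NT cells (2.14 ± 0.30, limma adjusted p = 0.0003). CARD16, its neighbour and a regulator of caspase-1, was at 94.4 and 76.9 TPM in TKO cells, against 11 and 14.3 TPM in NT cells (2.67 ± 0.25, limma adjusted p = 1.6e-05). CASP1 and CARD16 share sequence, so reads may be split between them. CASP4, a caspase of the non-canonical route, rose in TKO (1.06 ± 0.08, limma adjusted p = 4.3e-06) and in NKO cells (1.23 ± 0.08, adjusted p = 4.1e-06) against NT cells on DLL4. All 3 lie on chromosome 11.

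Prostanoid genes around PTGS2 also differed between TKO and NT cells, with 4 of 18 higher and 6 lower on DLL4 (55.6%, beside 26.6% of all genes) and 2 higher and 6 lower on IgG (44.4%, beside 27.6%). PTGIR, the prostacyclin receptor, measured 10.3 and 12.2 TPM in TKO cells on DLL4, against 0.480 and 0.330 TPM in NT cells (3.12 ± 0.18, limma adjusted p = 4.1e-07). SLCO2A1, a prostaglandin uptake carrier, was at 0.0640 and 0.123 TPM in TKO cells, against 5.66 and 4.99 TPM in NT cells (-2.53 ± 0.19, limma adjusted p = 3.8e-06). TBXAS1, the thromboxane synthase, fell by 1.86 ± 0.19 (limma adjusted p = 3.4e-05) and TBXA2R, the thromboxane receptor, fell by 2.01 ± 0.20 (limma adjusted p = 2.7e-05). On IgG these 4 genes passed the test in the same directions. HPGD, among the higher genes on both coatings, had passed the filter on low values through the TKO libraries alone. In NKO against NT cells on DLL4, 3 of the 18 rose and 3 fell (33.3%, beside 20.7% of all genes). PTGIR rose (1.09, limma adjusted p = 0.0016) and TBXA2R fell (-1.05, adjusted p = 0.0044) there, while SLCO2A1 and TBXAS1 did not pass.

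**Figure D4:**
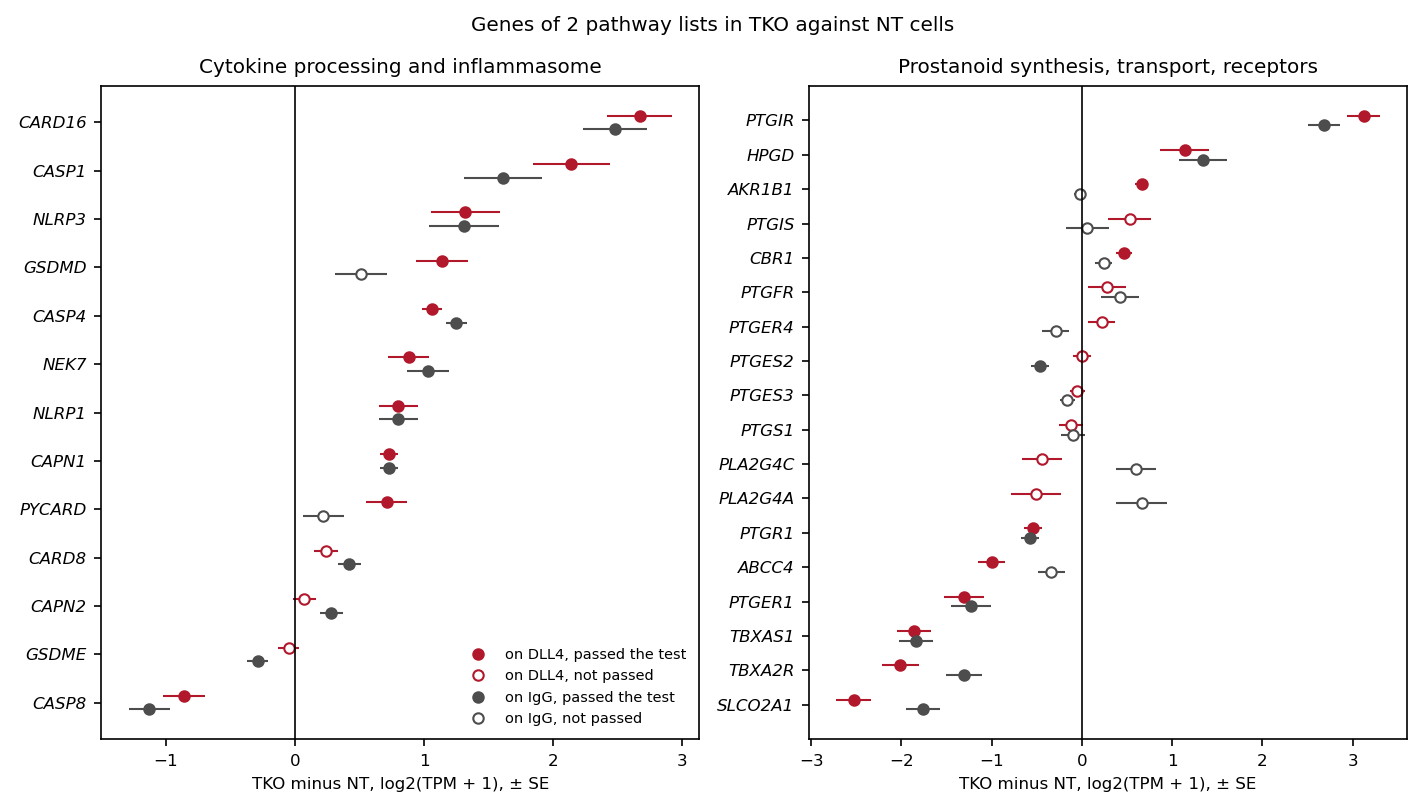
Difference of log2(TPM + 1) between TKO and NT cells, with standard errors, for the tested genes of 2 pathway lists, on DLL4 and on IgG. Filled points passed the test (limma adjusted p under 0.05) and open points did not. CARD16 (2.67 on DLL4) and PTGIR (3.12) are the highest of their lists and SLCO2A1 (-2.53) is the lowest of the prostanoid list.

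Of the 15 tested targets of interleukin-1, 4 rose and 5 fell in TKO against NT cells on DLL4 (60.0%, beside 26.6% of all genes), and 1 rose and 5 fell in NKO against NT cells (40.0%, beside 20.7%). Their median difference was 0.31 in TKO and -0.14 in NKO cells. CCL2 rose by 0.58 in TKO and by 0.46 in NKO cells (limma adjusted p = 0.0024 and 0.014), the latter past the threshold in 14 of 18 alternatives. CXCL6, at 1.44 TPM in both TKO libraries and 0 in both NT libraries, passed the filter through TKO libraries alone. IL32, a cytokine of human cells, was at 87.2 and 94.2 TPM in TKO cells and 193 and 163 TPM in NKO cells on DLL4, against 671 and 679 TPM in NT cells, a difference of -2.88 ± 0.09 for TKO cells and -1.92 ± 0.09 for NKO cells (limma adjusted p = 9.4e-09 and 6.6e-07). CXCL1, a neutrophil chemokine, fell in TKO (-0.91 ± 0.11) and NKO cells (-1.48 ± 0.11) on DLL4 (limma adjusted p = 0.0001 and 7.4e-06). It shares sequence with CXCL2 and CXCL3, so reads may be split among them. Of 26 tested genes of signalling from the receptor, 4 rose and 5 fell in TKO against NT cells on DLL4 (34.6%, beside 26.6% of all genes). On IgG 4 rose and 3 fell (26.9%, beside 27.6%). MAP3K8, among the higher ones on both coatings, had passed the filter on low values through the TKO libraries alone. Of 14 NF-kB subunits and feedback genes 2 rose and none fell on DLL4 (14.3%), and 4 rose and 1 fell on IgG (35.7%). IRAK3, a brake on IRAK signalling, measured 0.0765 and 0.0824 TPM in TKO cells on DLL4, against 1.91 and 2.04 TPM in NT cells (-1.46 ± 0.17, limma adjusted p = 9.3e-05). IKBKG, the scaffold of the kinase that activates NF-kB, fell by 0.95 ± 0.09 (limma adjusted p = 1.4e-05), and RELA, an NF-kB subunit on chromosome 11, rose by 0.85 ± 0.09 (adjusted p = 5.5e-05). On IgG, 5 of the 15 targets rose and 5 fell in TKO against NT cells (66.7%, beside 27.6% of all genes). In NKO against NT cells on IgG, 2 rose and 5 fell (46.7%, beside 10.7%). There IL32 differed by -2.76 in TKO and -1.84 in NKO cells, and CXCL1 by -1.24 and -1.53. In TKO cells on IgG, IRAK3 (-1.39), IKBKG (-1.15) and RELA (0.86) also passed in the same directions as on DLL4.

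In NKO against NT cells 11 of the 119 list genes rose and 15 fell on DLL4 (21.8%, beside 20.7% of all genes) and 5 rose and 12 fell on IgG (14.3%, beside 10.7%). On DLL4 the total was 15 without NT library DLL4 2 or 3, 13 without NKO library DLL4 1 and 14 without DLL4 2. On IgG it was 11 without NT library IgG 2, 6 without NT library IgG 3, 11 without NKO library IgG 1 and 11 without a filter.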

How the data were processed

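Polyadenylated RNA of 12 libraries, 2 in each of 6 groups, was sequenced. The deposited TPM per gene symbol were made by the authors, and the submitters' processing notes name kallisto, edgeR and hg38. The sources used here do not give versions, the annotation behind the symbols or how transcripts were summed. Read depth is unknown, and the TPM of a library sum to 974989 to 977130.

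TPM were transformed to log2(TPM + 1), which understates changes of low genes. Genes with at least 1 TPM in at least 2 libraries were kept, leaving 13299, and 1 limma model (3.58.1, R 4.3.3) with the 6 groups gave differences, standard errors and Benjamini-Hochberg adjusted p-values over all 13299 genes, with a threshold of 0.05. The residual degrees of freedom were 6, or 10.8 after moderation. The procedure was tested on simulated data. Figures were drawn with matplotlib 3.10.9.

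The 8 genes and the pathway and marker lists were chosen with earlier results of these data known. Named were the 8 genes, the targeted genes and, per list and comparison, up to 4 genes past the threshold with the smallest p, and for each of the 8 with a mean of at least 1 TPM the 3 other genes of at least 5 TPM with the highest Pearson r over 12 libraries, 21 in all, of which 1 is not reported here. PTGS1, IL1RN, IL1R2, SELE, VCAM1, ICAM1, the markers given values and the neighbours of IL1RL1 were chosen after their values were seen. As alternatives, each library was left out in turn, the pseudocount was set to 0.1, the filter was dropped or replaced by a mean of 5 TPM, libraries were rescaled by median of ratios, KPNA2P2 (0.280 to 5.61% of a library) was removed, and a replicate block was added. Coordinates come from GENCODE and sequences from RefSeq, both of GRCh38.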

Additional observations from a re-analysis of the deposited data

Results flagged for a closer look

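The DLL4 response, the difference between coatings within a line, differed between lines by the test of that difference for 5 genes among the 8 and the pathway lists. These are descriptions for IL33 and PTGS2, which were chosen with such values known. Between TKO and NT cells the response differed by -2.67 for IL33, -2.69 for PTGS2 and 0.68 for AKR1B1. AKR1B1 encodes an aldose reductase that can make prostaglandin F2-alpha, and its value (SE 0.10, limma adjusted p = 0.016) passed the threshold in 12 of 18 alternatives, with adjusted p between 0.01 and 0.092.

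Between NKO and NT cells the response differed by -2.63 for IL33, 1.1 for CSF3 and -1.07 for IRF1. CSF3 (SE 0.22, limma adjusted p = 0.047) passed in 8 of 18 alternatives, with adjusted p between 0.028 and 0.17. IRF1 (SE 0.18, limma adjusted p = 0.021) passed in 11 of 18, with adjusted p between 0.012 and 0.11.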

How the results depend on the processing

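No difference of the 8 genes that had passed the threshold changed sign under the alternatives run. Without a filter the pathway lists had 10 calls for DLL4 in TKO cells, 11 for NKO against NT cells on IgG and 0 for the NKO response, and all genes had 78 for the NKO response. A pseudocount of 0.1 left 1 list gene for the NKO response. Dropping genes under a mean of 5 TPM and median-of-ratios rescaling each gave 2 list genes for DLL4 in NKO cells, and 108 and 107 genes in all for the TKO response, for which the rescaling called 2 list genes. The cause was not tested.

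Leaving out 1 library gave 958 to 2380 genes for DLL4 in NT cells, 302 to 1017 in TKO cells and 37 to 116 in NKO cells. It gave 2315 to 3716 (DLL4) and 2424 to 3909 (IgG) for TKO against NT cells, 1450 to 2991 and 664 to 1579 for NKO against NT cells, and 8 to 100 and 31 to 107 for the TKO and NKO responses. In the pathway lists the ranges, in the same order, were 13 to 21, 8 to 18, 1 to 3, 37 to 54, 39 to 56, 13 to 27, 6 to 20, 0 to 1 and 0 to 2. A group left with 1 library was assumed to vary like the others.

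Libraries with the same number had deviations from their group means that correlated at -0.154 to 0.279 between groups. The highest value, 0.279, was that between the 2 coatings of NKO cells, beside 0.016 in TKO and 0 in NT cells. Whether libraries with the same number belong together is not known, and the main fit treats them as unpaired. With the replicate number as a block, DLL4 in NKO cells had 2 list genes and 136 genes in all, PTGS2 in NT cells (0.90) and IL6 in the NKO response (-0.90) passed the threshold, and no other call of the 8 genes changed. Read depth is unknown, so levels near 0 TPM, such as IL33 in NT cells and IL1B in TKO cells on IgG, have no counting error attached.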
